A study of Mus musculus with 3 samples.

Results

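The endothelin genes examined here were Edn1 and Edn3, which encode the peptide ligands endothelin-1 and endothelin-3, Ednra and Ednrb, which encode the endothelin A and endothelin B receptors, and Ece1, which encodes endothelin-converting enzyme 1. These 5 genes, of 22535 genes in the count tables, were chosen by name, and they were followed by cell class and by library in single-cell RNA libraries from mouse kidney. The libraries were prepared on the BD Rhapsody platform from the renal cortex of WT1CreERT2; Rosa26-tdT fl/+ mice, in which tamoxifen turns on the red reporter tdT in cells that express Wt1. The Sham library held cells of kidneys after sham surgery, with tdT+ cells enriched and mixed with tdT- cells. The IRI24h-TDN library was the same kind of mixture 24 h after severe ischemia-reperfusion injury (IRI), and the IRI24h-TD library held tdT+ cells alone from kidneys 24 h after IRI. Each condition was 1 library, so that no test between conditions was possible, and no value has a replicate error. The WT1CreERT2 driver marks podocytes and WT1+ parietal epithelial cells (PECs, the cells that line Bowman's capsule), so the shares of cell classes in these libraries are set by the sort and are not those of a kidney.

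Endothelins are made as long precursors that furin-type proteases and then endothelin-converting enzymes cut to short peptides, which act on nearby cells. Endothelin-1 is the main vascular form, and it contracts smooth muscle through endothelin A receptors, which signal through G proteins of the Gq and G12 families. Endothelin B receptors bind both endothelin-1 and endothelin-3. On endothelial cells they lead to the release of nitric oxide and clear endothelin-1 from the circulation, and in the collecting duct they lower sodium reabsorption. In the kidney the system is known for its control of glomerular blood flow and of salt and water excretion.

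On mm10, as placed by GENCODE M21, Edn1 lies on the plus strand of chromosome 13 (42301476 to 42307990), Edn3 on the plus strand of chromosome 2 (174760619 to 174784042), and Ece1 on the plus strand of chromosome 4 (137862237 to 137965229). Ednra lies on the minus strand of chromosome 8 (77663031 to 77724464) and Ednrb on the minus strand of chromosome 14 (103814625 to 103844402). All 5 are protein-coding. Edn1 and Ece1 each overlap an antisense gene (Gm47118 and Gm13012), and Ednra overlaps the transcript 4933431K23Rik on the other strand. The sources used here do not say whether reads were counted by strand, so reads of these partners cannot be told apart from those of the genes.

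Of 30008 barcodes, 26760 had at least 200 genes and at most 50% mitochondrial UMIs (unique molecular identifiers, each standing for 1 captured RNA molecule). Sham kept 8047 cells, IRI24h-TDN 9024 and IRI24h-TD 9689. The Sham and IRI24h-TDN tables held an equal number of barcodes, 10062 each, and it is unknown if either is incomplete, which would bear on totals and class shares. The library totals were 69980443, 92355554 and 93470709 UMIs, and median depths were 7746, 9151 and 9529 UMIs a cell. In the kept cells there were 1687 UMIs of Edn1, 2341 of Edn3, 778 of Ednra, 3922 of Ednrb and 3383 of Ece1. Cells were grouped into 32 clusters without the endothelin genes, and clusters were named from marker lists, with the suffix "-like" because the names were rebuilt here. Levels are in CPM, the UMIs of the gene scaled to a common total of UMIs of the class, with exact 95% Poisson intervals, and shares of cells have exact Clopper-Pearson intervals. All intervals in this text cover counting error only, not the spread between cells or between animals. The intervals of levels and ratios treat UMIs as independent, so they are too narrow where few cells hold many of the UMIs. Levels were compared between cells and libraries for each gene by itself, never between genes.

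The classes that matter here were 17621 podocyte-like, 1048 PEC-like, 313 endothelial-like, 772 mural-like (smooth muscle, pericyte and renin cells) and 3262 tubule-like cells. The tubule-like cells were 1002 proximal tubule epithelial (PTEC-like), 609 ascending limb-like, 510 distal convoluted tubule-like, 606 connecting tubule and principal-like and 535 intercalated-like cells. Each class was checked against its markers. The endothelial list of 9 genes summed to 12224 CPM in endothelial-like cells against 18.5 in PEC-like and 195 in mural-like cells, and the mural list of 12 genes summed to 31911 CPM in mural-like cells. RNA of the abundant podocytes was found in every class. The podocyte list summed to 13555 CPM in endothelial-like cells, 4746 in mural-like, 4590 in PEC-like and 2671 in intercalated-like cells, and its part in the results below was not tested beyond the values given beside them. A further 575 cells formed a cluster led by Gc, Wfdc16 and Sox9 that carried the PEC list at 4365 CPM and the PTEC list at 7020 CPM. It was left unnamed and is called the Gc-led cluster. IRI24h-TD held 7 endothelial-like, 16 mural-like and 12 intercalated-like cells, and its values in those classes rest on these few cells.

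The 5 genes had different maps over the cell classes. Edn1 was highest in endothelial-like cells, Edn3 in intercalated-like and PEC-like cells, Ednra in mural-like cells and fibroblast-like cells, Ednrb in mural-like and endothelial-like cells, and Ece1 in endothelial-like cells. Podocyte-like cells, the largest class, were at or near 0 for both receptors and for Edn3.

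**Figure D1:**
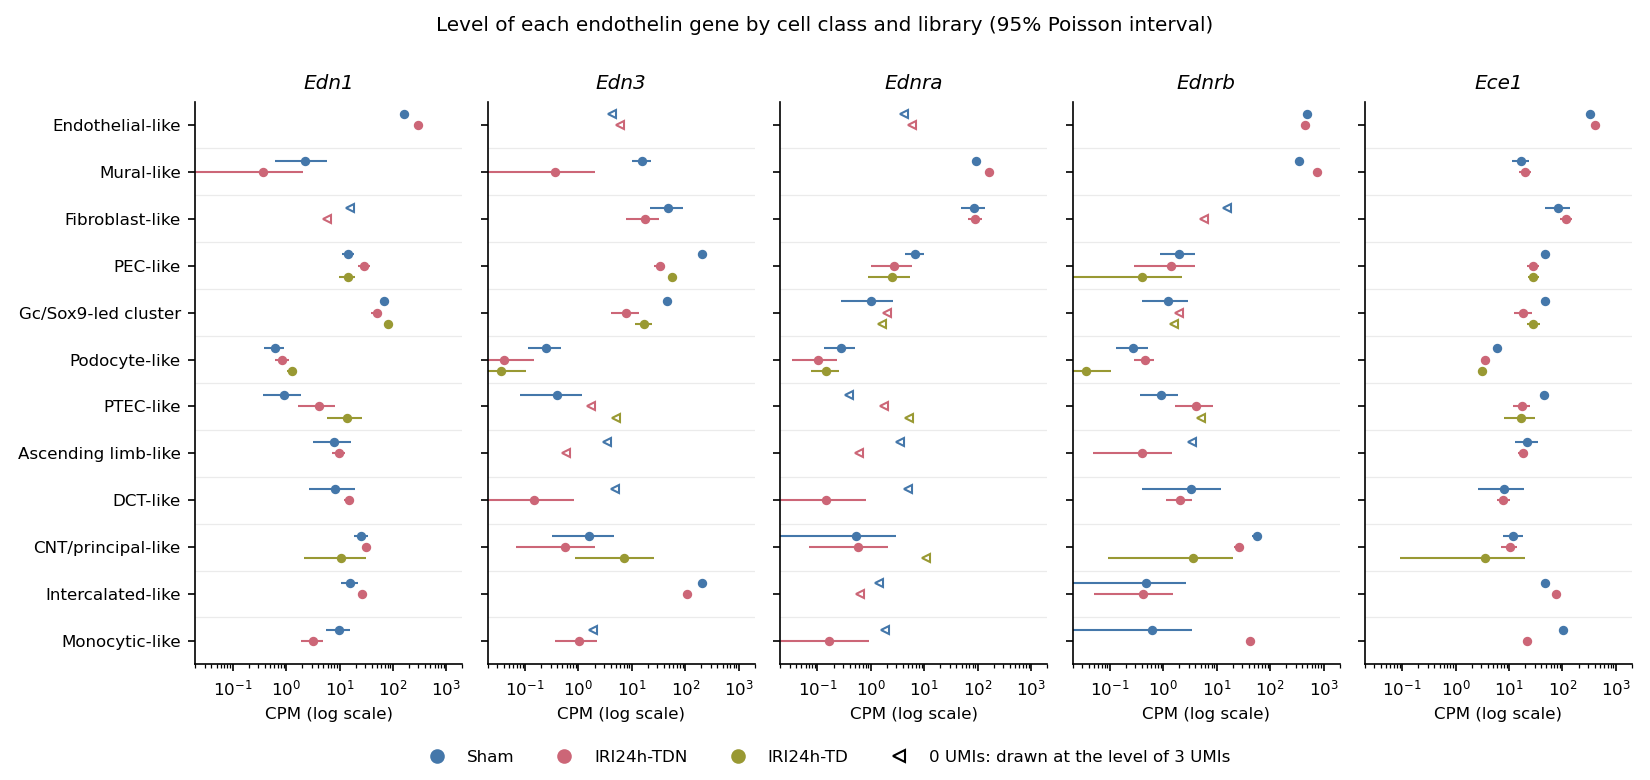
Level of each endothelin gene in CPM (log scale, horizontal) in each cell class (vertical) and library, with exact 95% Poisson intervals. Open triangles mark 0 UMIs at the level that 3 UMIs would give, and groups under 20 cells are not drawn. Edn1 and Ece1 peaked in endothelial-like cells, Edn3 in intercalated-like and PEC-like cells, and Ednra in mural-like cells. Ednrb was highest in endothelial-like cells in Sham and in mural-like cells in IRI24h-TDN.

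Edn1, the ligand gene, was measured at 163 CPM in endothelial-like cells of Sham, at 294 CPM in those of IRI24h-TDN and in 0 of the 7 such cells of IRI24h-TD. Both libraries with more than a few of these cells were above every other class of the same library. Over all libraries the level was 213 CPM (188 to 240 CPM), and 19.2% of endothelial-like cells (60 of 313; 15 to 24.0%) had a UMI of Edn1. The next level was that of the Gc-led cluster, at 67.3 CPM (61.6 to 73.5 CPM), whose interval did not meet that of the endothelial-like cells. Connecting tubule and principal-like cells (28.8 CPM), intercalated-like cells (22.6 CPM), PEC-like cells (18.2 CPM) and distal convoluted tubule-like cells (14.3 CPM) followed, and each of these overlapped its neighbour in the order. Podocyte-like cells had 1.01 CPM, with a UMI in 0.556% of cells, although their median depth was 9281 UMIs against 2948 in endothelial-like cells. By number of molecules rather than level, 29.6% of all Edn1 UMIs fell in the Gc-led cluster and 15.8% in endothelial-like cells.

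Edn1 was uneven among endothelial-like cells. Of the 60 cells with a UMI, 17 had 1, 23 had 2 to 4 and 20 had 5 or more, and the 10 cells with the most held 48.1% of the UMIs of the class. A single Sham cell held 33 of the 117 Sham UMIs, and without it the Sham level was 119 CPM. Ednrb was found in 24 of the 60 cells with Edn1 (40.0%) and in 60.5% of those without, at median depths of 3740 and 2761 UMIs, and this difference was not tested. Within libraries the shares were 34.5% against 58.0% in Sham and 45.2% against 69.4% in IRI24h-TDN, so the deeper cells with Edn1 had the lower share in both. Ece1, the enzyme that processes the ligand, was found in 76.7% of cells with Edn1 and 59.3% of those without, in the order of depth.

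Edn1 was compared between IRI24h-TDN and Sham in each class. A gene counts here as past 2-fold when its CPM differed at least 2-fold with at least 20 UMIs over both groups. In endothelial-like cells the IRI24h-TDN level was 1.8-fold the Sham level (1.40 to 2.31). That is under 2-fold, and 0 of the 3 endothelin genes with enough UMIs in this class (Edn1, Ednrb and Ece1) were past it, against 16.4% of 7641 genes. The call for Edn1 depended on which cells were kept. Without the single Sham cell named above the levels were 119 CPM in Sham and 294 CPM in IRI24h-TDN, which is more than 2-fold. The top cell of IRI24h-TDN, with 17 of 149 UMIs, was kept there. Other settings gave a smaller difference. The log2 ratio was 0.85 with all cells, 0.50 without the top 6% of doublet scores and 0.41 with a class from each cell alone. The podocyte list was 16438 CPM in the endothelial-like cells of Sham and 8811 CPM in those of IRI24h-TDN, and the PTEC list was 1525 and 15.8 CPM. In tubule-like cells together the Edn1 level was 7.74 CPM in Sham, 18 CPM in IRI24h-TDN and 11.2 CPM in IRI24h-TD, while the make-up of the tubule-like cells differed between libraries. Within tubule classes the ratio of IRI24h-TDN to Sham was 1.66 in intercalated-like (1.12 to 2.52), 1.24 in connecting tubule and principal-like (0.879 to 1.77), 1.21 in ascending limb-like (0.546 to 3.17) and 1.8 in distal convoluted tubule-like cells (0.746 to 5.66). In PTEC-like cells, with 7 UMIs in each library, the ratio was 4.41 (1.32 to 14.7). The intervals of intercalated-like and PTEC-like cells lay above 1, and the other 3 included it.

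In PEC-like cells Edn1 was at 14.6 CPM in Sham, 29.2 CPM in IRI24h-TDN and 14.2 CPM in IRI24h-TD. The IRI24h-TDN value was above the other two, at 2.0 times Sham (1.38 to 2.90), and IRI24h-TD was 2.05-fold lower than IRI24h-TDN (1.34 to 3.19). PEC-like cells were made of 3 clusters, and their shares differed between the libraries. A cluster led by Clstn2, Dkk3 and Fbn1 held 478 cells, a cluster led by Tnc, Cp and Wnt16 held 341, and a cluster led by the cell division genes Top2a and Mki67 held 229. The Top2a-led cluster made up 12.8% of the Sham class, 34.0% of the IRI24h-TDN class and 32.0% of the IRI24h-TD class. It also carried tubule genes, with the PTEC list at 2154 CPM against 461 CPM in the Tnc-led cluster. Gc was at 315 against 15.2 CPM and Havcr1 at 549 against 13.2 CPM. Its median depths were 1783, 7254 and 3432 UMIs in Sham, IRI24h-TDN and IRI24h-TD, so its Sham cells were shallow. Its Edn1 level was 45.5, 53.7 and 18.7 CPM in Sham, IRI24h-TDN and IRI24h-TD. The Tnc-led cluster had 20.4, 18.4 and 25.8 CPM, so the Top2a-led cluster was the higher in the former pair and the lower in IRI24h-TD, and the Clstn2-led cluster had 5 UMIs of Edn1 in all. Within clusters the ratio of IRI24h-TDN to Sham was 1.18 in the Top2a-led (0.656 to 2.23) and 0.902 in the Tnc-led cluster (0.479 to 1.63), so the ratio of the whole class was not seen inside either. With the class drawn at a finer clustering (resolution 2) or from each cell's own markers, the log2 ratio of Edn1 was -0.14 and -0.09, and its direction thus depends on which cells are called PEC-like.

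In the Gc-led cluster Edn1 was at 68.3 CPM in Sham, 49.97 CPM in IRI24h-TDN and 79.3 CPM in IRI24h-TD. The IRI24h-TDN level was the lowest of the 3, 1.37-fold under Sham (1.06 to 1.79), and IRI24h-TD was 1.59-fold above IRI24h-TDN (1.20 to 2.12). A UMI of Edn1 was found in 31.1% of these cells. In podocyte-like cells Edn1 stayed near 1 CPM, with 0.609, 0.852 and 1.28 CPM in Sham, IRI24h-TDN and IRI24h-TD, and 33 of the 107 UMIs of IRI24h-TD came from a single cell.

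Edn3, the gene of endothelin-3, had a narrow map. Intercalated-like and PEC-like cells together held most of its molecules, 41.2% and 44.5% of all Edn3 UMIs. The level was 139 CPM in intercalated-like cells (130 to 148 CPM) and 119.7 CPM in PEC-like cells (113 to 127 CPM) over all libraries. The order of these classes is not settled, since in Sham both stood at 207 and 206 CPM, and with stricter cell filters the pooled values were 125 and 129 CPM. The Gc-led cluster followed at 30.2 CPM and fibroblast-like cells at 22.5 CPM, and those overlapped. In endothelial-like cells there were 0 UMIs of Edn3. As a guide in place of an exact interval, the share that 3 of the 313 cells would give is 0.959%, and the level that 3 UMIs would give is 2.41 CPM. Podocyte-like cells had 14 UMIs in 17621 cells, or 0.0828 CPM, in 0.0681% of cells (median depth 9281 UMIs), so the shares in PEC-like and intercalated-like cells lay far above this background.

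In PEC-like cells Edn3 was at 206 CPM in Sham, 32.9 CPM in IRI24h-TDN and 55.8 CPM in IRI24h-TD. Both libraries from injured kidneys were far below Sham, and the intervals of the 3 did not meet. The IRI24h-TDN level was 6.26-fold lower than Sham (4.91 to 8.07), and the share of PEC-like cells with a UMI was 40.8% in Sham against 17.5% (IRI24h-TDN) and 19.5% (IRI24h-TD) after injury. Thinned to 2400 UMIs a cell, the shares were 28.6%, 7.14% and 11.6%. IRI24h-TD was 1.70-fold above IRI24h-TDN (1.27 to 2.29). Of the 4 endothelin genes with enough UMIs in PEC-like cells, 3 were past 2-fold between IRI24h-TDN and Sham (Edn1, Edn3 and Ednra), where 21.8% of 11712 genes were. Between IRI24h-TD and IRI24h-TDN 1 of 3 was (Edn1), where 7.19% of 11041 genes were. In the former comparison Edn1 was at the limit, with a log2 ratio of 1.003 that was 0.977 with TMM scaling. Ednra rested on 27 UMIs in Sham and 6 in IRI24h-TDN, with an interval that included 1.

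The difference in Edn3 was present in each PEC-like cluster. The Tnc-led cluster, with the PEC list at 9018 CPM and the podocyte list at 1733 CPM, had 320 CPM of Edn3 in Sham, 61.7 CPM in IRI24h-TDN and 161 CPM in IRI24h-TD, and a UMI in 71.8%, 32.9% and 58.3% of its cells. The Clstn2-led cluster had 116, 25.6 and 27.1 CPM. The Top2a-led cluster had 42.7, 5.71 and 7.69 CPM. IRI24h-TDN was thus 5.18-fold (3.94 to 6.92), 4.52-fold (2.41 to 9.57) and 7.48-fold (2.58 to 26.3) below Sham in the 3 clusters, and Edn3 was lower in all of them. In IRI24h-TD the Tnc-led cluster stood at 2.61 times its IRI24h-TDN level (1.87 to 3.66), and the Clstn2-led cluster at 1.06 times (0.488 to 2.48). Over all libraries the Tnc-led cluster had 2.82 times the Edn3 of the Clstn2-led cluster (2.44 to 3.28) and 12.8 times its Edn1 (5.24 to 40.6). The podocyte list was above the PEC list in the Clstn2-led (7620 against 4824 CPM) and the Top2a-led cluster (4923 against 3363 CPM).

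**Figure D2:**
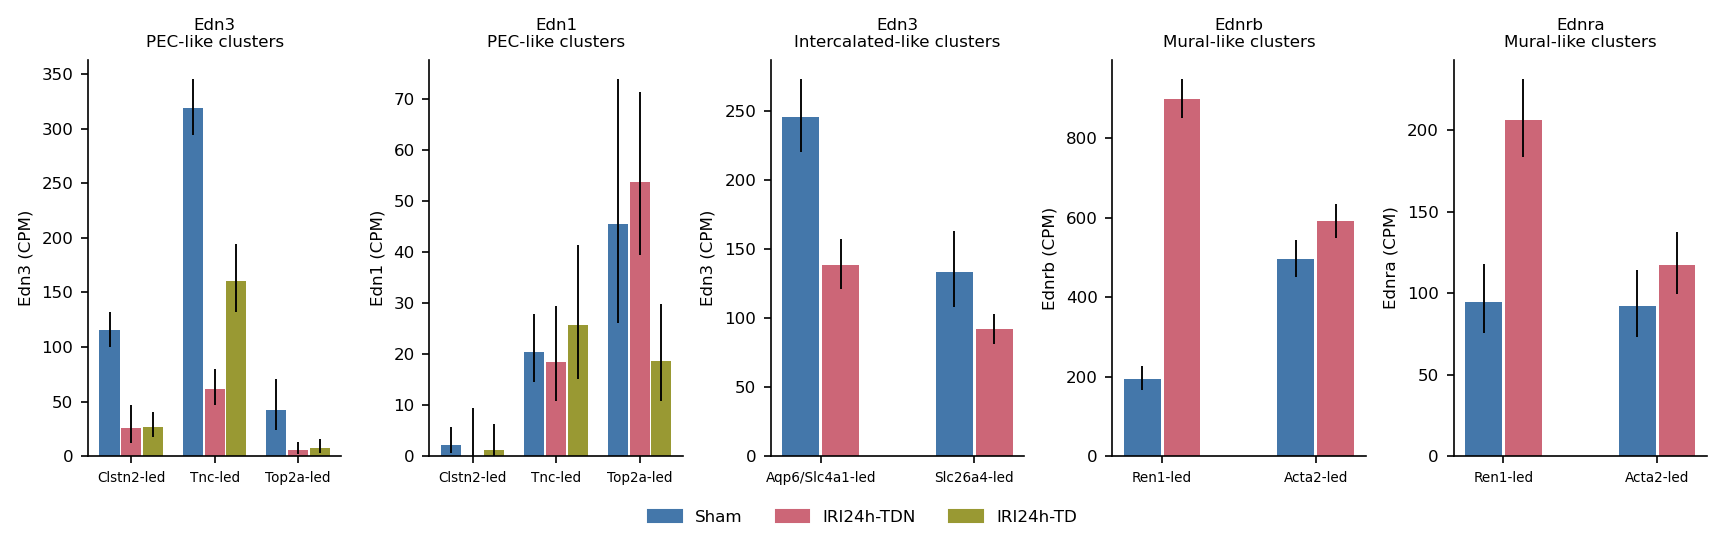
Levels in CPM (bars from 0, exact 95% Poisson intervals) of Edn3 and Edn1 in the PEC-like clusters of the 3 libraries, of Edn3 in the intercalated-like clusters, and of Ednrb and Ednra in the mural-like clusters of Sham and IRI24h-TDN. Edn3 in the Tnc-led PEC-like cluster was 320 CPM in Sham and 61.7 CPM in IRI24h-TDN, and Ednrb in the Ren1-led mural-like cluster was 194 and 900 CPM.

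The study follows WT1+ PECs, so PEC-like cells were also divided by a UMI of Wt1, the transcription factor gene that drives the reporter. A Wt1 UMI does not by itself mark a WT1+ PEC, since RNA of podocytes, which express Wt1, was found in every class. Wt1 was at 685.1, 226.0 and 252.1 CPM in the Clstn2-led, Tnc-led and Top2a-led clusters and 216.9 CPM in the Gc-led cluster. It was also at 228.7 CPM in a Chil3-led monocytic-like and 114.2 CPM in an Aqp6-led intercalated-like cluster. The other clusters of those classes had at most 47.76 CPM. The part of podocyte RNA in this division was not tested. Of 1048 PEC-like cells, 731 had a Wt1 UMI and 317 did not, with median depths of 7563 and 3732 UMIs. Edn3 was at 126 CPM with a Wt1 UMI and 93.7 CPM without (1.35-fold, 1.14 to 1.60), and Edn1 was at 16.9 and 23.3 CPM (0.725-fold, 0.504 to 1.06). When each cell was thinned to 2400 UMIs before the division, Edn3 was at 132 and 148 CPM (0.897-fold, 0.711 to 1.13), so the order of the Edn3 levels turned after thinning. Within Sham alone, without thinning, the Edn3 levels were 207 and 201 CPM (1.03-fold, 0.853 to 1.25). In IRI24h-TDN the ratio was 1.75 (1.01 to 3.17) and in IRI24h-TD 1.003 (0.601 to 1.78), and in the Tnc-led cluster over all libraries it was 1.57 (1.31 to 1.90). For Edn1 the ratio was 0.832 in Sham, with 1.49 for IRI24h-TDN and 0.272 for IRI24h-TD, so the libraries did not share a direction. In the Gc-led cluster the pooled ratios were 1.48 for Edn1 (1.13 to 1.98) and 2.82 for Edn3 (1.67 to 5.14), at median depths of 12818 UMIs with and 7693 UMIs without a Wt1 UMI. The Edn1 ratio in IRI24h-TD alone was 0.938 (0.589 to 1.57), and after thinning to 2400 UMIs a UMI of Edn3 was found in 5.98% and 4.69% of cells.

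In the Gc-led cluster, which carries PEC and PTEC genes together, Edn3 was at 45.0 CPM in Sham, 7.89 CPM in IRI24h-TDN and 16.9 CPM in IRI24h-TD. The order of the libraries was that of the PEC-like cells, and IRI24h-TDN was 5.71-fold below Sham (3.19 to 11.3). There, 2 of 3 endothelin genes were past 2-fold between IRI24h-TDN and Sham (Edn3 and Ece1), against 17.8% of 11012 genes. Between IRI24h-TD and IRI24h-TDN 1 of 3 was (Edn3, 2.14-fold, 1.07 to 4.57), against 4.52% of 9967 genes. Across Sham, IRI24h-TDN and IRI24h-TD the PTEC list of this cluster was 10183, 3397 and 3248 CPM, and the PEC list 3175, 4972 and 6389 CPM.

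In intercalated-like cells, the acid-base cells of the collecting duct, Edn3 was at 207 CPM in Sham, 108 CPM in IRI24h-TDN and 147 CPM in the 12 cells of IRI24h-TD. Sham was the highest, and IRI24h-TDN was 1.91-fold lower (1.68 to 2.18). A UMI was found in 58.7% of intercalated-like cells (54.4 to 62.9%), the largest share of any class, and in 25.8% after thinning to 2400 UMIs. In this class 0 of 3 endothelin genes were past 2-fold, against 15.3% of 10622 genes.

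Intercalated-like cells formed 2 clusters. A cluster led by Aqp6 and Slc4a1, the basolateral anion exchanger gene of type A cells, held 285 cells, and a cluster led by Slc26a4, the pendrin gene of type B cells, held 250. The Slc26a4-led cluster was 28.0% of the intercalated-like cells of Sham and 56.9% of those of IRI24h-TDN. Edn3 was higher in the Aqp6-led cluster, at 246 against 134 CPM in Sham and 138 against 91.9 CPM in IRI24h-TDN, or 1.83-fold over all libraries (1.61 to 2.09). Within clusters IRI24h-TDN was 1.78-fold (1.5 to 2.11) and 1.45-fold (1.14 to 1.84) below Sham. Edn1 in the Slc26a4-led cluster was 5.51 CPM in Sham (4 UMIs) and 30.1 CPM in IRI24h-TDN (92 UMIs), a ratio of 5.46 (2.06 to 20.5). In the Aqp6-led cluster it was 21.3 and 19.2 CPM, with no such difference. Ece1 was above Sham in both clusters, with 47.0 and 93.2 CPM in the Aqp6-led (1.98-fold, 1.47 to 2.70) and 49.6 and 66.1 CPM in the Slc26a4-led cluster (1.33-fold, 0.931 to 1.96), and the interval of the latter included 1.

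Edn3 in mural-like cells was low and came almost wholly from Sham, with 27 UMIs (15.5 CPM) there and 1 UMI in each library from injured kidneys. The ratio of IRI24h-TDN to Sham is 0.0239 with a wide interval (0.000585 to 0.145). Of the 29 UMIs, 18 lay in the 52 mural-like cells without a UMI of the smooth muscle gene Myh11, where the PEC list was 3026 CPM against 1144 CPM in those with Myh11. The part of PEC RNA in this value was not tested further.

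Ednra, the gene of the endothelin A receptor, was found mainly in mural-like cells, which held 81.2% of its UMIs. Their level was 93.3 CPM in Sham, 164 CPM in IRI24h-TDN and 238 CPM in the 16 cells of IRI24h-TD. Sham was the lowest of the 3, and IRI24h-TDN was 1.76-fold above it (1.47 to 2.12). A UMI was found in 46.1% of mural-like cells, and 202 of the 356 cells with a UMI had exactly 1. Fibroblast-like cells had 82.5 CPM (63.8 to 105 CPM), and the ratio of IRI24h-TDN to Sham there was 1.06 (0.587 to 2.0). PEC-like cells were far lower at 4.49 CPM, with 6.67 CPM in Sham, 2.74 CPM in IRI24h-TDN and 2.44 CPM in IRI24h-TD, from 27, 6 and 6 UMIs. That ratio of IRI24h-TDN to Sham was 2.44-fold lower with an interval that included 1 (0.985 to 7.22). The PEC-like clusters did not share a direction. Sham and IRI24h-TDN had 15 and 4 UMIs in the Clstn2-led cluster, a ratio of 1.215 (0.294 to 3.81). They had 12 and 0 in the Tnc-led and 0 and 2 in the Top2a-led cluster. There were 0 UMIs of Ednra in endothelial-like, intercalated-like, ascending limb-like and PTEC-like cells. The share that 3 of the 313 endothelial-like cells would give is 0.959%, and podocyte-like cells had 0.160 CPM.

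Ednrb, the gene of the endothelin B receptor, was at 349 CPM in mural-like cells of Sham, at 754 CPM in those of IRI24h-TDN and at 646 CPM in the 16 cells of IRI24h-TD. Sham was again the lowest, and IRI24h-TDN was 2.16-fold above it (1.97 to 2.37). A UMI was found in 52.4%, 72.6% and 68.8% of the cells. In endothelial-like cells the levels were 485, 460 and 370 CPM in Sham, IRI24h-TDN and the 7 cells of IRI24h-TD. There the IRI24h-TDN level was 1.05-fold below Sham (0.891 to 1.25), so a difference between these libraries was not detectable at this depth. The endothelial-like level was thus above the mural-like level in Sham and below it in IRI24h-TDN. Over all libraries the levels were 596 CPM in mural-like (574 to 619 CPM) and 472 CPM in endothelial-like cells (435 to 512 CPM), and these classes held 69.2% and 15% of all Ednrb UMIs. In mural-like cells 2 of 4 endothelin genes were past 2-fold between IRI24h-TDN and Sham (Ednrb upward and Edn3 downward), against 10.8% of 10259 genes.

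Mural-like cells formed 2 clusters of similar size, and the receptors differed between them. A cluster led by Ren1, the renin gene, held 399 cells, and a cluster led by Acta2 and Myh11, genes of smooth muscle contraction, held 373. Ednrb in the Ren1-led cluster was 194 CPM in Sham and 900 CPM in IRI24h-TDN, or 4.63-fold (3.94 to 5.47). In the Acta2-led cluster it was 496 and 591 CPM, or 1.19-fold (1.06 to 1.34). The order of the clusters was thus turned, with the Acta2-led cluster 2.55-fold higher in Sham (2.13 to 3.07) and 1.52-fold lower in IRI24h-TDN (1.39 to 1.67). Ednra in the Ren1-led cluster was 94.8 and 207 CPM (2.18-fold, 1.70 to 2.82), and in the Acta2-led cluster 91.9 and 117 CPM (1.28-fold, 0.970 to 1.69). The difference between the clusters in the ratio was not tested, since each condition was 1 library. At resolution 2 the Ren1-led cluster was divided further. A part led by Rgs5 and Notch3, without Ren1 among its leading genes, held 71 Sham and 171 IRI24h-TDN cells. A part led by Ren1 held 72 and 76. The place of this shift in make-up in the receptor ratios was not tested.

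The Ren1-led cluster also differed in other RNA. Its podocyte list was 9004 CPM in Sham and 8119 CPM in IRI24h-TDN, against 854 and 1135 CPM in the Acta2-led cluster. Its Acta2 level was 4165 and 7321 CPM, its Myh11 level 1975 and 2691 CPM, and its Ren1 level 7040 and 7301 CPM. Acta2 and Myh11 were thus higher in IRI24h-TDN, as the receptors were, while the whole mural list of 12 genes went from 31770 CPM in Sham to 29662 CPM in IRI24h-TDN. Their part in the receptor values was not tested. Podocyte-like cells themselves had 0.207 CPM of Ednrb, far below any mural-like value. Divided cell by cell, the 720 mural-like cells with a Myh11 UMI had 637 CPM of Ednrb and 147 CPM of Ednra, and the 52 without had 114 and 41.9 CPM. Both receptors were found in 252 of 772 mural-like cells, and Ednrb in 70.8% of cells with Ednra and 59.9% of those without, at median depths of 5508 and 4907 UMIs.

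**Figure D3:**
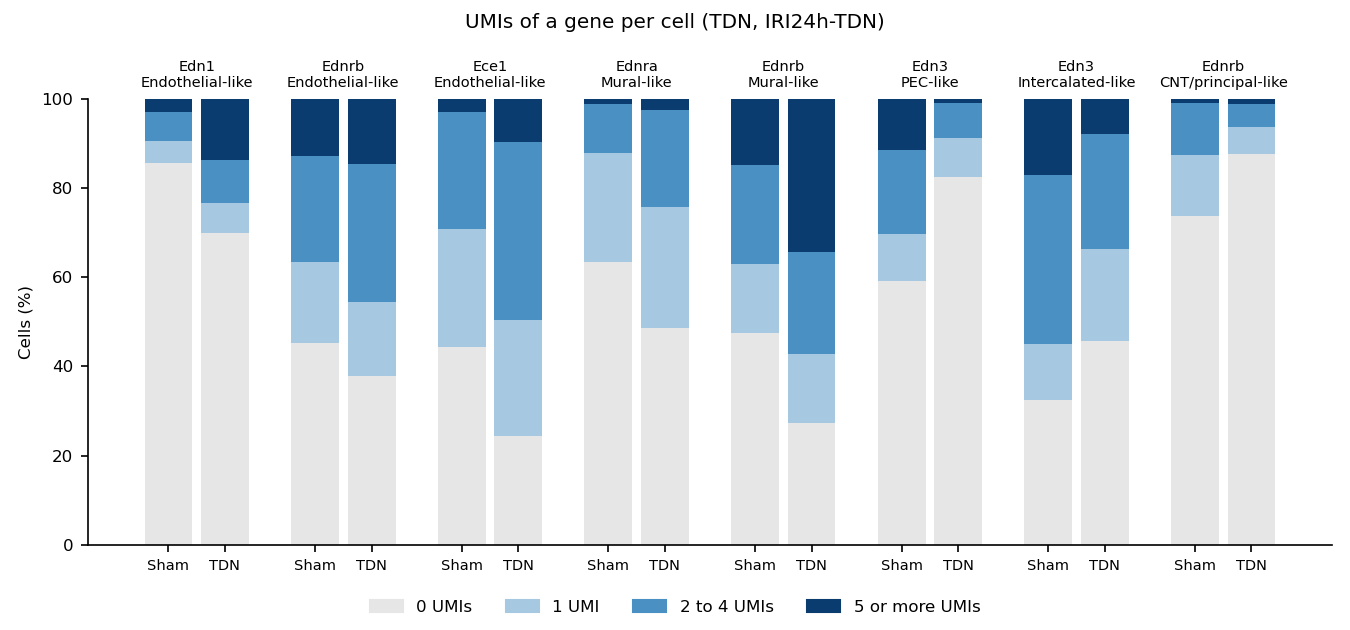
Share of cells (percent, bars to 100) with 0, 1, 2 to 4 and 5 or more UMIs of a gene, for 8 pairs of gene and class in Sham and IRI24h-TDN. Of mural-like cells 43 of 292 in Sham and 159 of 464 in IRI24h-TDN had 5 or more UMIs of Ednrb, and of PEC-like cells 66 of 576 and 2 of 206 had 5 or more of Edn3.

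In connecting tubule and principal-like cells, where the endothelin B receptor acts on sodium transport, Ednrb was at 56.2 CPM in Sham, 26.5 CPM in IRI24h-TDN and 3.57 CPM (1 UMI) in the 29 cells of IRI24h-TD. IRI24h-TDN was 2.12-fold below Sham (1.59 to 2.83), and the share of cells with a UMI was 26.2% and 12.4%. This was the opposite direction to the mural-like cells of the same libraries. In this class 1 of 3 endothelin genes was past 2-fold (Ednrb), against 16.5% of 10467 genes. The endothelial list was 33.6 CPM in these cells of Sham and 12.6 CPM in IRI24h-TDN, and the mural list 481 and 387 CPM. In PEC-like cells there were 12 UMIs of Ednrb in 1048 cells, and the level of 1.38 CPM overlapped those of PTEC-like and distal convoluted tubule-like cells.

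Monocytic-like cells had 1 UMI of Ednrb in 317 cells of Sham, 248 UMIs in 922 cells of IRI24h-TDN and 68 UMIs in 16 cells of IRI24h-TD. The ratio of IRI24h-TDN to Sham was 67.8 with an interval of 12.1 to 2688. These molecules were not spread over the class, since 10 cells held 300 of the 317 UMIs (94.6%), and the others had 2.26 CPM. In this class 3 of 3 endothelin genes were past 2-fold between IRI24h-TDN and Sham (Ednrb upward, Edn1 and Ece1 downward), against 22.5% of 10615 genes.

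Ece1 was broader than the other members. Endothelial-like cells were the highest, with 325 CPM in Sham, 406 CPM in IRI24h-TDN and 452 CPM in the 7 cells of IRI24h-TD. A UMI was found in 62.6% of them, and 57.4% after thinning to 2400 UMIs. Sham was the lowest, and IRI24h-TDN was 1.25-fold above it (1.03 to 1.51). The podocyte list of these cells was higher in Sham than in IRI24h-TDN, as given above for Edn1, and its part in this ratio was not tested. Fibroblast-like cells (96.2 CPM) and intercalated-like cells (67.5 CPM) followed, and monocytic-like, PTEC-like, PEC-like cells and the Gc-led cluster lay between 36.7 and 39.0 CPM with overlapping intervals. Podocyte-like cells had 3.87 CPM, with 5.86, 3.59 and 3.17 CPM in Sham, IRI24h-TDN and IRI24h-TD, and IRI24h-TDN was 1.63-fold below Sham (1.33 to 2.01). Of the 3 members with enough UMIs in podocyte-like cells 0 were past 2-fold, against 14.7% of 13253 genes.

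In the proximal tubule Ece1 was lower in the libraries from injured kidneys. PTEC-like cells had 45.1 CPM in Sham, 17.5 CPM in IRI24h-TDN and 16.9 CPM in the 39 cells of IRI24h-TD. Both were below Sham, and IRI24h-TDN was 2.58-fold lower (1.77 to 3.88). Between Sham and IRI24h-TDN the PTEC list of these cells went from 62238 to 13546 CPM and the PEC list from 71.1 to 643 CPM, and the part of these shifts in the Ece1 value was not tested. Ece1 was the single member with enough UMIs there (1 of 1 past 2-fold, against 29.1% of 10939 genes). With TMM scaling, which moved all genes of this class by -0.14 on the log2 scale, the log2 ratio was -1.51 in place of -1.37. In the Gc-led cluster Ece1 was 47.5, 18.4 and 28.5 CPM in Sham, IRI24h-TDN and IRI24h-TD, and IRI24h-TDN was 2.58-fold below Sham (1.73 to 3.99). In PEC-like cells the values were 47.2, 28.3 and 28.5 CPM, and IRI24h-TDN was 1.67-fold below Sham (1.25 to 2.26). Within clusters it was 2.24-fold below Sham in the Clstn2-led cluster (1.17 to 4.81). In the Tnc-led (1.35-fold lower, 0.864 to 2.15) and Top2a-led clusters (1.14-fold lower, 0.505 to 2.42) the intervals included 1. The Clstn2-led cluster was 52.1% of the PEC-like cells of Sham and 27.7% of those of IRI24h-TDN. Intercalated-like cells went the other way, with 47.9, 75.6 and 86.9 CPM, and IRI24h-TDN was 1.58-fold above Sham (1.26 to 1.99). In ascending limb-like and distal convoluted tubule-like cells the ratios were 1.20-fold and 1.05-fold lower with intervals that included 1, and 0 of 2 members (Edn1 and Ece1) were past 2-fold in either, against 21.3% of 10341 and 22.4% of 10471 genes. TMM moved these classes by 0.17 and 0.15 on the log2 scale, and with it the log2 ratio of Ece1 in distal convoluted tubule-like cells turned from -0.07 to 0.08.

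In monocytic-like cells Ece1 was 104 CPM in Sham, 21.8 CPM in IRI24h-TDN and at 0 in the 16 cells of IRI24h-TD, and IRI24h-TDN was 4.79-fold below Sham (3.79 to 6.06). A cluster of 92 cells led by the antigen presentation genes H2-Ab1 and H2-Aa, with the dendritic cell gene Xcr1 among its leading genes, held 163 of the 300 UMIs. It made up 42 of the 317 cells of Sham and 48 of the 922 cells of IRI24h-TDN, and its Ece1 level was 398 CPM in Sham and 106 CPM in IRI24h-TDN. In the cluster of 910 cells led by Ccl4 and C1qc it was 35.1 and 14.1 CPM. In the third cluster, of 253 cells led by Chil3, it was 9.15 CPM in Sham (2 UMIs) and 24.9 CPM in IRI24h-TDN (40 UMIs), a ratio of 2.72 (0.706 to 23.3).

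**Figure D4:**
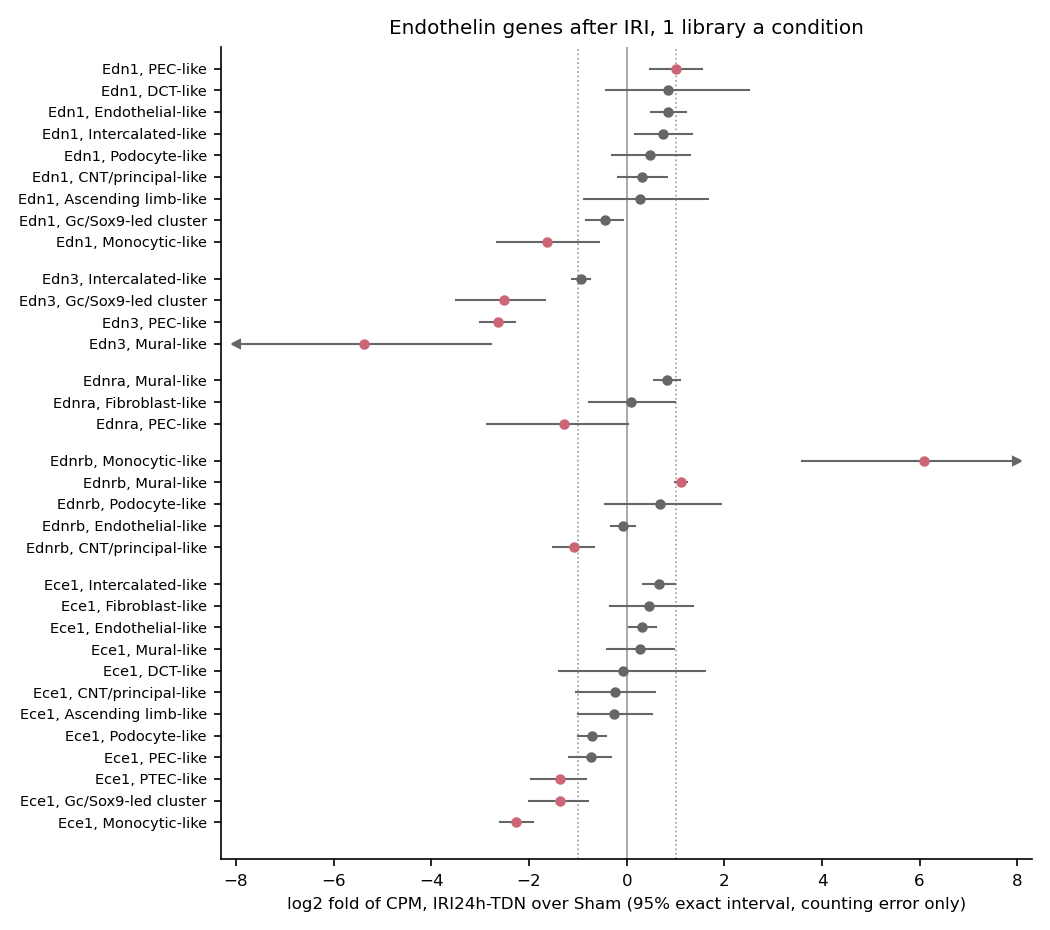
Ratio of CPM of IRI24h-TDN to Sham on a log2 scale (horizontal, exact 95% intervals of counting error, 1 library a condition) for each endothelin gene and class with enough UMIs. Red marks ratios past 2-fold and arrowheads mark intervals that run past the axis. Edn3 lay below Sham in PEC-like, intercalated-like and mural-like cells and in the Gc-led cluster, and Ednrb lay above Sham in mural-like cells and below it in connecting tubule and principal-like cells.

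Podocyte-like Ednrb was at 10 UMIs in Sham, 22 UMIs in IRI24h-TDN and 3 UMIs in IRI24h-TD. IRI24h-TD was 12.4-fold below IRI24h-TDN (3.73 to 64.8), at levels under 0.5 CPM in all 3 libraries.

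The list of 20 other genes of the pathway held those of ligand processing, receptor signalling and the nitric oxide branch, and all 20 were in the count tables. Edn2, the gene of endothelin-2, had few UMIs. Podocyte-like cells had 254 of them, at 1.5 CPM and in 1.23% of cells, with 0.775 CPM in Sham and 1.66 CPM in IRI24h-TDN (2.15-fold, 1.38 to 3.42). Mme, the gene of neprilysin, a protease that breaks down endothelin-1, was at 956 CPM in podocyte-like, 912 CPM in intercalated-like and 652 CPM in PEC-like cells. In PTEC-like cells it was 100.2 CPM in Sham and 31.4 CPM in IRI24h-TDN, or 3.19-fold lower (2.42 to 4.28), and in fibroblast-like cells 319 and 53.8 CPM, or 5.93-fold lower (3.73 to 9.64). The podocyte list in fibroblast-like cells went from 10195 to 2253 CPM between the same libraries, and its part in the Mme value was not tested. Among PTEC-like cells, a cluster led by Gatm had the podocyte list at 3968 CPM, against 1059 CPM in a cluster led by Kap. The Gatm-led cluster held 291 of 867 PTEC-like cells in Sham and 17 of 96 in IRI24h-TDN. The part of this shift in the Mme value of PTEC-like cells was not tested either. Nos3, the gene of endothelial nitric oxide synthase, which acts under endothelin B receptors, was at 48.9 CPM in endothelial-like cells and at or below 1.25 CPM in the other named classes in which it had a UMI. It was 19.6 CPM in Sham (14 UMIs) and 92.7 CPM in IRI24h-TDN (47 UMIs), a ratio of 4.74 (2.57 to 9.32).

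By comparison of IRI24h-TDN with Sham, 2 of 14 pathway genes with enough UMIs were past 2-fold upward and 2 downward in endothelial-like cells (Plcb4 and Nos3, and Gna12 and Prkg1), where 6.56% of all genes were upward and 9.88% downward, with a median log2 ratio of -0.09 beside -0.03 over all genes. In PEC-like cells 0 of 14 were upward and 2 downward, where 10.1% and 11.7% of all genes were, with a median of -0.62 beside -0.01. These were Arhgef12, which acts under G12 proteins, and Gucy1b1, a subunit of the nitric oxide receptor. Gucy1b1 was at 12.6 CPM in Sham (51 UMIs) and 1.83 CPM in IRI24h-TDN (4 UMIs), or 6.90-fold lower (2.54 to 26.3). In mural-like cells 0 of 16 were upward and 1 downward (Pcsk7), where 4.75% and 6.0% of all genes were, with a median of -0.11 beside 0.01. The nitric oxide receptor subunits Gucy1a1 and Gucy1b1 were at 220 and 282 CPM in mural-like cells of Sham and at 159 and 240 CPM in those of IRI24h-TDN, so they did not follow the upward direction of Ednra and Ednrb. In podocyte-like cells Edn2 was upward and Arhgef12 downward, of 15, where 5.59% and 9.08% of all genes were. In PTEC-like cells Plcb4 was upward and Mme downward, of 13, where 13.5% and 15.5% of all genes were. Single genes were upward in connecting tubule and principal-like (Plcb1 of 12) and intercalated-like cells (Prkg1 of 14), where 8.85% and 8.89% of all genes were upward. In monocytic-like cells 1 of 14 was upward (Furin, a precursor protease) and 4 downward (Gna11, Plcb4, Itpr1 and Arhgef12), where 12.7% and 9.83% of all genes were. In the distal convoluted tubule 3 of 13 were upward (Gnaq, Plcb1 and Plcb4), where 11.02% of all genes were, and Plcb1 had 61 UMIs in IRI24h-TDN against 1 in Sham (5.49-fold, 0.949 to 220).

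The genes most like each member were found over 25 groups of cells (classes divided by library) by Pearson correlation of log2(CPM + 10). The groups share libraries and depth, so these values are descriptions. Nearest to Edn1 were Palmd (r = 0.88), Zfp820, B3gnt3, Git1 and Cdc42ep2 (r = 0.84). Nearest to Edn3 were Dkk3 (r = 0.93), Trpm3, Sytl5, Ackr4 and Pgm5 (r = 0.82). Nearest to Ednra were Slc8a2 (r = 0.999), Gucy1a2, Mrvi1, Cd248 and Cacna1c (r = 0.99). Of the 25 groups only those of mural-like cells had more than a few CPM of Ednra, and fibroblast-like cells were in no group. Any gene confined to mural-like cells would thus have a high r with Ednra, and its r cannot be set against those of the other members. Nearest to Ednrb were Tbx3 (r = 0.95), Fam20a, Gja4, Lrrc32 and Ebf1 (r = 0.92), and nearest to Ece1 were Gm4951 (r = 0.87), Clec1a, Cmpk2, Acvrl1 and Dram1 (r = 0.84).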

How the data were processed

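For every library (3 in all) the authors deposited raw UMI counts, genes by barcodes, without normalization. Per the labels, reads were placed on mm10, and CASAVA 1.8, UMI-tools and Seurat are named without role or order; the strand of counting is not given in the sources used here. The study states that multiplets were removed before analysis, and no doublets were removed here except in an alternative.

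The endothelin genes and all lists were chosen with earlier results of these data known. From the counts, barcodes with under 200 genes or over 50% mitochondrial UMIs were left out. Counts scaled to 10000 per cell, 2000 variable genes without the members and pathway genes, 30 principal components, a Harmony correction between libraries (theta 2, numpy 2.4.6) and Leiden clustering (15 neighbours, resolution 1, leidenalg 0.10.2, igraph 0.11.9) gave 32 clusters. A cluster was named from at least 3 markers of a class, each in 25% of its cells. UMIs were summed per class and library and compared as exact conditional ratios (scipy 1.17.1, Python 3.11.15), without a test. A fold against 0 UMIs used a floor of 3. The call rule recovered 100% of 200 changed genes among 11692 in Poisson counts simulated for PEC-like cells, and called 1.36% of unchanged genes. The planted changes were well above 2-fold and in genes with at least 100 UMIs. The simulation held no spread between cells, so it does not cover calls near 2-fold or near 20 UMIs. Kept cells numbering 540 had a barcode found in more than 1 library.

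All members were described in every class. Of the pathway list, Edn2, Mme and Nos3 were named always and others at 4-fold with 50 UMIs in the higher group. Genes past 2-fold from that list were also named where a count of 5 or fewer was given, as were Gucy1a1 and Gucy1b1 in mural-like cells, after their values were seen. Alternatives were stricter cell filters, no correction, resolution 2, a class from each cell alone, removal of doublet scores, shared barcodes or the top cell, TMM scaling (edgeR 4.0.16), thinning and single clusters.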

Additional observations from a re-analysis of the deposited data

Results flagged for a closer look

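For Edn1 and Ednrb the ratio of IRI24h-TDN to Sham was past 2-fold in opposite directions in different classes. The counting intervals lay on opposite sides of 0 on the log2 scale. The difference between classes was not tested, since each condition was 1 library. For Edn1 the log2 ratio was 1.0 in PEC-like cells and -1.62 in monocytic-like cells, the latter from 35 UMIs. For Ednrb it was 1.11 in mural-like cells and 6.08 in monocytic-like cells against -1.08 in connecting tubule and principal-like cells. The Edn1 ratio in PEC-like cells changed direction with the clustering, and most of the monocytic-like Ednrb came from 10 cells. Ece1 also had intervals on both sides of 0, but its upward ratios were under 2-fold. Its log2 ratio was 0.66 in intercalated-like and 0.32 in endothelial-like cells. It was -2.26 in monocytic-like, -1.37 in PTEC-like, -0.74 in PEC-like and -0.71 in podocyte-like cells, and -1.37 in the Gc-led cluster.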

How the results depend on the processing

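Of 174 results under alternatives, 127 were counted as the same, 41 as moved and 6 as reversed. Results with an interval were judged by it, but shares of genes past 2-fold and neighbour counts had none. The Tnc-led cluster alone and the PEC-like class without podocyte-rich clusters were the same 341 cells. The reversal of Edn1 in them was thus counted under both. With edgeR TMM scaling and without shared barcodes, 0 moved. Without the top cell 0 of 11 pooled levels moved, but ratios were not part of that alternative. The Edn1 ratio in endothelial-like cells did depend on a single Sham cell, as given above.

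The log2 ratio of Edn1 in PEC-like cells (1.0) was -0.14 at resolution 2, -0.09 with a class from each cell alone, -0.15 in the Tnc-led cluster alone or without PEC-like clusters richer in podocyte RNA, and 0.24 in the Top2a-led cluster; that of Edn1 in endothelial-like cells was 0.41 with a class from each cell alone. By a Wt1 UMI, Edn1 turned to 0.45 without the podocyte-rich clusters and Edn3 to -0.16 after thinning. Single clusters, chosen after seeing the data, gave Edn3 -2.18 (Clstn2-led) and -0.54 (Slc26a4-led), Ednrb 2.21 (Ren1-led) and 0.25 (Acta2-led), and Ednra 1.12 and 0.35.

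Levels in CPM with a class from each cell alone were Edn1 271 (endothelial-like) and 36.8 (PEC-like), Edn3 111 (PEC-like), Ednra 157 and Ednrb 721 (mural-like), and Ednrb 591 and Ece1 455 (endothelial-like). Without high doublet scores endothelial-like Edn1 was 265, Ednrb 559 and Ece1 422, and mural-like Ednrb 664. PEC-like Edn1 was 32.9 without correction and 42.6 at resolution 2; PEC-like Edn3 was 96.1, 85.5, 129 with stricter cell filters and 221 without the podocyte-rich clusters. Stricter filters gave intercalated-like Edn3 125 and Ece1 80.6.

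Thinning to 2400 UMIs lowered shares of cells to 2.78% (Edn1, PEC-like), 5.67% (Edn1) and 7.27% (Ednrb, connecting tubule and principal-like), 19.9% (Edn3, PEC-like), 25.8% (Edn3) and 14.7% (Ece1, intercalated-like), 28.7% (Ednra) and 50.1% (Ednrb, mural-like) and 45.0% (Ednrb, endothelial-like). With at least 100 UMIs, 5.24% of genes in mural-like and 9.94% in intercalated-like cells were past 2-fold. With log2(CPM + 1) 1, 2 and 3 of the 5 neighbours of Edn1, Ednra and Ednrb were kept. No paired analysis was possible because each condition was 1 library. Classes with few cells in a library limit the precision.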

Other observations

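The 10 monocytic-like cells that held most of the Ednrb of their class were chosen by that gene, so what follows describes them and tests nothing. They had 9 to 68 UMIs of Ednrb each, 0 came from Sham, 9 from IRI24h-TDN and 1 from IRI24h-TD, and 9 lay in the cluster led by Ccl4 and C1qc. Their leading genes beside Ednrb were Cd209f (in 6 of the 10 cells), Fcna (9), Vsig4 (2), Lyve1 (9), Ccl8 (9), Cbr2 (9) and Cd163 (8). Lyve1, a hyaluronan receptor of some tissue macrophages and of lymphatic vessels, was at 6094 CPM and in 9 of the 10 cells, against 12.5 CPM in the other monocytic-like cells, and Cd163, a scavenger receptor of macrophages, was at 1106 against 15.9 CPM. The monocytic list was 17860 CPM in these cells and 24851 CPM in the others, the endothelial list 6.28 and 24.9 CPM, and the mural list 276 and 49.8 CPM. Their median depth was 15764 UMIs against 5300, and 0 of them were among the highest 6% of doublet scores.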
